A study of Homo sapiens with 12 samples.

Results

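The genes described here are 47 genes of DNA repair and the Fanconi anaemia pathway, chosen by name with earlier results of these data known. They were grouped by role into homologous recombination (20 genes in 2 subsets), the Fanconi pathway (11), mismatch repair (3), end joining (5), checkpoint signalling (5), and base excision with single-strand break repair (3). The arrays carried 77 probes named for 43 of the genes, and 61 probes were detected often enough to keep, which left 40 of the 47 genes among the 12507 genes tested. BRCA2, RBBP8, FANCA and FANCD2 had no probe under their names and were not analysed here. The probes of BRIP1, RAD50 and FANCM were undetected on all 12 arrays.

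MDA-MB-231, a human breast cancer line that carries a mutant p53, was measured on 12 single-colour Illumina bead arrays. A control siRNA or an siRNA against p53 was introduced into the cells, which were grown in 10% FBS. At 48 h after transfection they were moved to 0.1% FBS for 20 h, either untreated or with TNF-alpha at 10 ng/ml, so all 4 groups shared the low serum. The groups were thus untreated control siRNA, control siRNA with TNF, untreated p53 siRNA and p53 siRNA with TNF, each of 3 arrays that the labels call biological replicates. The study asked how mutant p53 affects the genes that TNF, an inflammatory cytokine, induces. The transcript targeted by the p53 siRNA is not analysed here, so its depletion was not checked, and effects of that siRNA other than on p53 cannot be told apart from those on p53.

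A double-strand break can be repaired by homologous recombination, which copies an intact sister chromatid and therefore works after replication, or by end joining, which ligates the ends in any phase of the cell cycle. The Fanconi pathway unhooks crosslinks between strands at stalled forks and hands the resulting breaks to recombination. Mismatch repair corrects replication errors behind the fork. Many genes of recombination, the Fanconi pathway and mismatch repair are transcribed mainly around S phase, in part through E2F factors, which bind promoters of replication genes, whereas the core end-joining genes are less tied to the cell cycle.

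The promoters of 5 of the genes are shown, all with an E2F word and from subsets that moved differently below: all 3 mismatch repair genes, a Fanconi gene and the end-joining gene XRCC6. Each is the RefSeq sequence (GRCh38.p14) from 250 bases before to 50 after the annotated start, 5′ to 3′ along the gene. EXO1 lies at chr1:241847954-241848253 on the plus strand, MSH6 at chr2:47782895-47783194 (plus), PMS2 at chr7:6009057-6009356 (minus), FANCC at chr9:95317660-95317959 (minus) and XRCC6 at chr22:41621045-41621344 (plus). Capitals mark matches, on either strand, to the E2F words TTTGGCGC, TTTCGCGC, TTTCCCGC and TTTGCCGC.
EXO1: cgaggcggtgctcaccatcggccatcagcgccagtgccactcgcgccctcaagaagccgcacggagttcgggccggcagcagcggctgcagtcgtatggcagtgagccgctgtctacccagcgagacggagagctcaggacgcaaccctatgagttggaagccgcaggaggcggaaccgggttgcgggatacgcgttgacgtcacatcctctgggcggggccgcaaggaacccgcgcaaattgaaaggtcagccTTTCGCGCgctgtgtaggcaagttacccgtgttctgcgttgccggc
MSH6: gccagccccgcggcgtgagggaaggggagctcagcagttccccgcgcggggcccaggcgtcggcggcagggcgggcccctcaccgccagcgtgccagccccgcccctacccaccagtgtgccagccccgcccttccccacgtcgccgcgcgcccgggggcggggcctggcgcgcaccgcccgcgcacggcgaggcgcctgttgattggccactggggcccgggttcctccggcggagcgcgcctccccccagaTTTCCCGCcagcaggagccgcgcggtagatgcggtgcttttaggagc
PMS2: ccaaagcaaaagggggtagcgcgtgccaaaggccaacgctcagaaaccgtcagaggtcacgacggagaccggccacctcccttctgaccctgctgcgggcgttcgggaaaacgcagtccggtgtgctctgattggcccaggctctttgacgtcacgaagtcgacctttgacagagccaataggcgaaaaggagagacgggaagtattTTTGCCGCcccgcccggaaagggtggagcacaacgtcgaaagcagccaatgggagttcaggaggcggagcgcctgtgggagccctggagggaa
FANCC: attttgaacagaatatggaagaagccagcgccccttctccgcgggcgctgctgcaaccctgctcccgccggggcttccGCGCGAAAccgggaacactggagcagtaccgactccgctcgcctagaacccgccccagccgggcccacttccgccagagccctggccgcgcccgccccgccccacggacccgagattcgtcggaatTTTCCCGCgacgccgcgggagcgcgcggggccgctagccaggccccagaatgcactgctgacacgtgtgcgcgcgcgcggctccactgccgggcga
XRCC6: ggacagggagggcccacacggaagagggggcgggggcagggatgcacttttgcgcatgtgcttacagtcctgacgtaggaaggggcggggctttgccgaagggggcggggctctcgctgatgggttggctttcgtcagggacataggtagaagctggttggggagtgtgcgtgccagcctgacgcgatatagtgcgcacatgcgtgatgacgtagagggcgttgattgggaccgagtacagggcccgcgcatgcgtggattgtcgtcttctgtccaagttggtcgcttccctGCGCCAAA

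The table held promoters for 40 of the 47 genes, 33 of them tested, and RAD54B, NBN, DNA2, WRN, FANCI, PRKDC and XRCC5 were missing from it. An E2F word stood in 9 of the 40 promoters (22.5%), against 4.44% of 15843 promoters of protein-coding genes of the same length and 5.38% of those of 9753 genes tested. The words of EXO1 and MSH6 began 5 and 4 bases after the start, that of PMS2 at position -43 and that of XRCC6 at 43 on the opposite strand. FANCC held matches at -172 and -46, and XRCC2, TOPBP1, FANCA and FANCD2 made up the 9. By subset a word stood in 3 of 3 mismatch repair, 3 of 10 Fanconi and 1 of 3 end-joining promoters. It stood in 1 of 10 promoters of recombination mediators and 0 of 6 of end processing. The FANCC and XRCC6 promoters shown are thus not typical of their subsets. The words stood in 5 of the 23 promoters of genes that fell with p53 siRNA in untreated cells (21.7%) and in 2 of the 10 of tested genes that did not (20%). A cell cycle homology region (TTTGAA or TTCGAA) was found in 12.5% of the 40 and 13.5% of all promoters, and a CCAAT box (CCAAT) in 52.5% and 36.4%. In these 40 promoters 0 held an E2F word that overlapped a homology region.

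The arrays were alike within groups, with correlations across genes of 0.992 to 0.993, save for untreated p53 siRNA, where they ran from 0.974 to 0.987 and replicate 3 stood apart. On that array 551 of all genes differed 2-fold or more from its companions' mean, and among the 40 repair genes 2 did, XRCC2 higher by 1.17 and PRKDC lower by 1.52 on the log2 scale. The results are therefore also given without it. As markers of the line, 8 of 8 mesenchymal-type breast cancer genes were detected, with a summed intensity of 117000 to 156000. Of 8 luminal genes 5 were kept, at 1415 to 2135 in sum, and ESR1, PGR and CDH1 were undetected on all 12 arrays. Of 7 leukocyte genes 5 were kept, with PTPRC and CD3E undetected. CD68, a lysosomal gene at 12.66 in the mean over the 12 arrays, was the highest of these, and their sum ran from 7086 to 8570 in untreated control siRNA cells, 7434 to 8387 with TNF, 8391 to 11470 with p53 siRNA and 7964 to 8954 with both.

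Of 8 fibroblast and endothelial genes 4 were kept, and VWF, CDH5 and KDR were undetected on all 12 arrays. Of the 4 kept, COL1A1, LUM and PECAM1 were higher with TNF in control siRNA cells (0.74, 1.11 and 1.37) and with p53 siRNA untreated (1.20, 1.74 and 0.97), and 2 were called higher in each of the other p53 siRNA and TNF effects. Their sum ran from 533.7 to 650.8, 1029 to 1401, 1162 to 1340 and 1802 to 2069 in the 4 groups in that order. The list thus moved in the comparisons in which repair genes fell, and its part in those results was not tested.

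Repair genes were highest in untreated control siRNA cells. Of the 40 genes, 31 had their highest group mean there, and the lowest mean lay in a p53 siRNA group for 30 of these 31. In control siRNA cells TNF lowered 11 of 16 recombination, 5 of 8 Fanconi and 2 of 3 mismatch repair genes, and in p53 siRNA cells it lowered 1, 0 and 0. Without TNF the p53 siRNA lowered 11, 8 and 3 of them, and 1 recombination gene, XRCC2, was called higher. For XRCC2, and for PMS2 among the mismatch repair genes, a dimmer probe lay in the opposite direction. Of the end-joining and checkpoint genes XRCC6 and CHEK1 alone were called. Of all genes 4.69% and 3.85% were lower for TNF with control and p53 siRNA, and 17.9% for p53 siRNA without TNF. In either direction 9.59%, 7.80% and 35.6% were called, and 30.9% for p53 siRNA under TNF. Counts over so few genes cannot set end joining and checkpoint signalling apart from these shares. Values below are normalised log2 intensities, a change is a difference between group means with its standard error (SE, 3 arrays against 3), and called genes are those with an adjusted p below 0.05 across all genes (limma, Benjamini-Hochberg). In such bulk samples fewer cells in a phase of the cycle and less RNA per cell cannot be told apart.

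**Figure D1:**
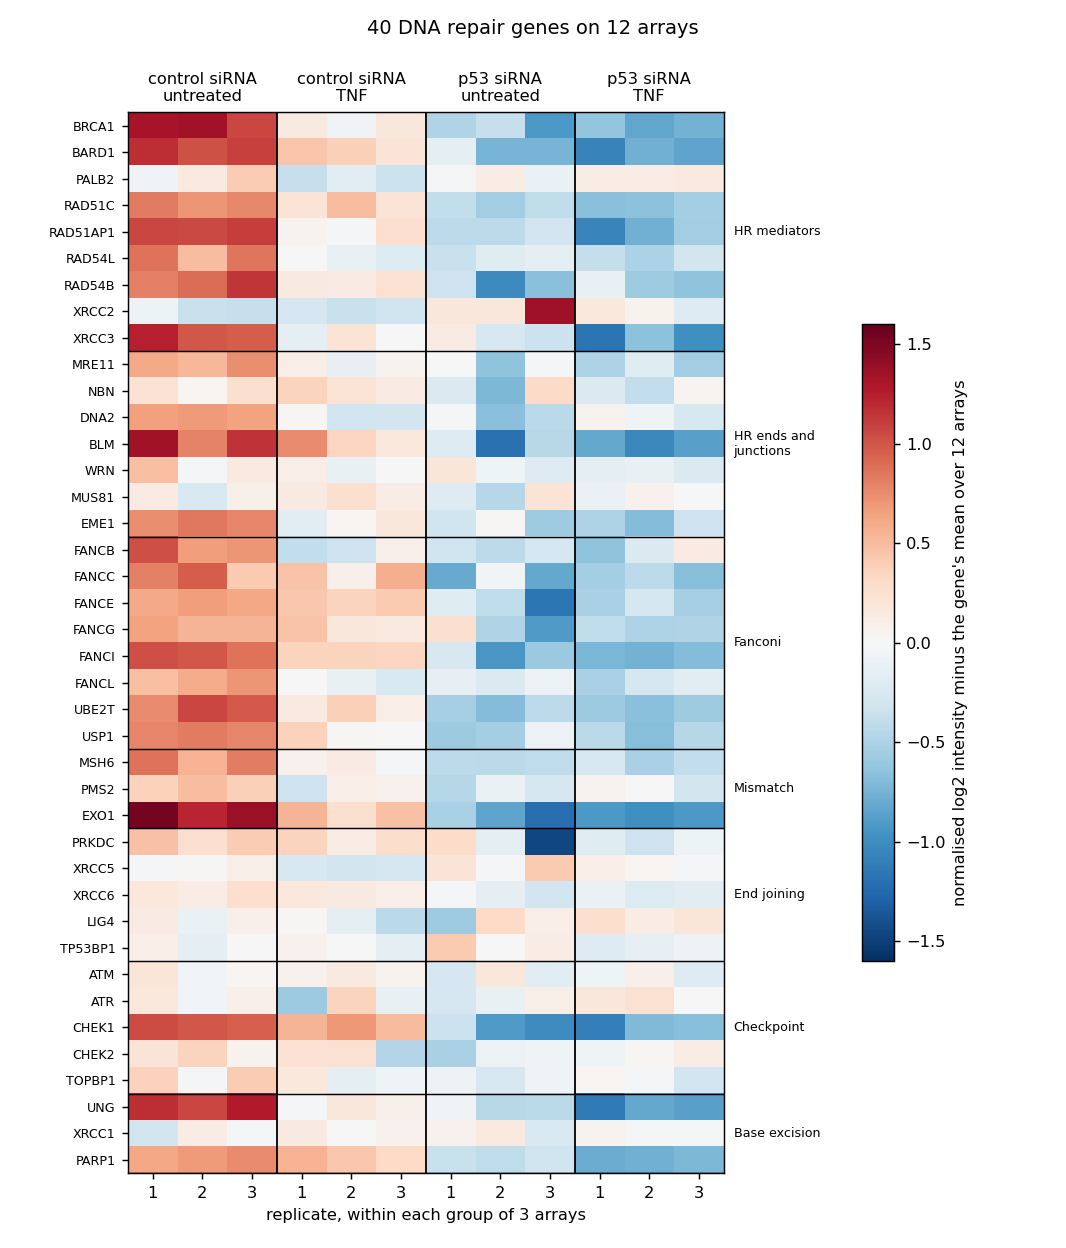
Normalised log2 intensity of the 40 tested repair genes (rows, by subset) on the 12 arrays (columns, by group), as the deviation from each gene's mean over the arrays. Red marks values above that mean and blue values below it. The untreated control siRNA arrays are the reddest for most genes outside end joining, and the dark cells of XRCC2 and PRKDC on replicate 3 of untreated p53 siRNA stand out.

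In control siRNA cells TNF lowered 19 of the 40 repair genes and raised 0, where 9.59% of all genes were called (4.69% lower and 4.89% higher). The median change of the repair genes was -0.46 against -0.01 for all genes. In p53 siRNA cells TNF lowered 3 of 40 and raised 0, with 7.80% of all genes called (3.85% lower and 3.95% higher), and the median was -0.08 against -0.01. The p53 siRNA lowered 26 and raised 1 in untreated cells, where 35.6% of all genes were called (17.9% lower and 17.7% higher), with a median of -1.003 against 0.01. Under TNF it lowered 20 and raised 1, with 30.9% of all genes called (16.5% lower and 14.4% higher) and a median of -0.44 against 0.01. Each TNF effect shares arrays with each p53 siRNA effect, so their values stand side by side here and no overlap between them is given.

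Without any test, the arrays of the groups did not overlap for 26 repair genes that were lower with TNF in control siRNA cells and 0 that were higher, against 33.7% of all genes (17.7% lower). In p53 siRNA cells this held for 7 lower and 2 higher, against 23.3% (12.2% and 11.1%). For p53 siRNA it held for 28 lower and 1 higher without TNF, against 43.2% (21.6% and 21.6%), and for 26 lower and 4 higher with TNF, against 53.9% (27.1% and 26.8%). Over the 36 genes with a probe detected on all 12 arrays, the TNF effect in control siRNA cells and the untreated p53 siRNA effect had medians of -0.46 and -0.96.

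With median scaling in place of quantile normalisation, the median of all genes moved to -0.14 for the untreated p53 siRNA effect and to -0.15 under TNF. The split over all genes then became 2773 lower and 909 higher in place of 2243 and 2215, and 2686 lower and 623 higher in place of 2064 and 1799. The repair genes lay at medians of -1.16 and -0.65 with that scaling, still well below all genes, with 27 lower and 0 higher, and 20 lower and 0 higher. Without replicate 3 of untreated p53 siRNA, 20 of the 40 were called for TNF in control siRNA cells, 3 for TNF in p53 siRNA cells, 28 for p53 siRNA in untreated cells and 25 under TNF, while 15.4%, 14.0%, 41.0% and 40.8% of all genes were.

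The recombinase itself was not among the members, but its mediators and motors were, and 8 of the 9 tested fell with TNF in control siRNA cells (median -0.78). Of all genes 4.69% were lower there. BRCA1, the breast cancer gene whose product directs ends towards recombination, read 9.75, 9.77 and 9.50 on the untreated control siRNA arrays and 8.58, 8.38 and 8.61 with TNF. It read 7.95, 8.06 and 7.51 with p53 siRNA and 7.80, 7.60 and 7.68 with p53 siRNA and TNF. Untreated control values lay above all others, the control values with TNF came next, and the p53 siRNA groups overlapped each other. TNF thus lowered BRCA1 2.22-fold in control siRNA cells (-1.15 ± 0.15, adjusted p = 4.04e-04) and the change in p53 siRNA cells was -0.15 ± 0.15 (adjusted p = 0.641). The p53 siRNA lowered it 3.57-fold without TNF (-1.83 ± 0.15, adjusted p = 6.44e-06) and 1.78-fold with TNF (-0.83 ± 0.15, adjusted p = 0.00142). Another BRCA1 probe gave -0.98 for TNF in control siRNA cells and -2.36 for the untreated p53 siRNA effect, and it was undetected in p53 siRNA cells with TNF.

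BARD1, the partner of BRCA1 in a ubiquitin ligase, read 11.10, 10.94 and 11.01 untreated and 10.37, 10.31 and 10.13 with TNF in control siRNA cells. With p53 siRNA it read 9.77, 9.18 and 9.18 untreated and 8.86, 9.15 and 9.08 with TNF. Each group lay below the one named before it without overlap. The fall with TNF was -0.75 ± 0.16 in control siRNA cells (adjusted p = 0.0102), the change in p53 siRNA cells was -0.35 ± 0.16 (adjusted p = 0.234), and the p53 siRNA effects were -1.64 ± 0.16 and -1.24 ± 0.16 (adjusted p = 1.59e-05 and 1.33e-04). The TNF call was lost without control TNF replicate 3 (adjusted p = 0.0510).

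RAD54B, a motor protein that remodels recombination intermediates, read 8.50, 8.59 and 8.84 in untreated control siRNA cells and 7.84, 7.82 and 7.93 with TNF. It read 7.36, 6.67 and 7.02 with p53 siRNA alone and 7.58, 7.12 and 7.05 with TNF added. The control groups stood above the p53 siRNA groups, which overlapped. TNF changed it by -0.78 ± 0.18 in control siRNA cells (adjusted p = 0.0185) and the p53 siRNA by -1.63 ± 0.18 without TNF (adjusted p = 4.41e-05). The TNF call was lost without control untreated replicate 2 or 3 or control TNF replicate 1 or 2 (adjusted p = 0.0503, 0.0818, 0.0634 and 0.0636), and the call for p53 siRNA under TNF without any control TNF array (0.0545, 0.0544 and 0.0760) or p53 siRNA TNF replicate 2 or 3 (0.0839 and 0.0957). Its relative RAD54L fell with TNF in control siRNA cells (-0.85 ± 0.13, adjusted p = 0.00107) and with p53 siRNA in untreated cells (-0.97 ± 0.13, adjusted p = 1.27e-04), and was not called under TNF (-0.28 ± 0.13, adjusted p = 0.117).

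XRCC3, a paralogue of the recombinase, was the only mediator called for TNF with both siRNAs. It changed by -1.04 ± 0.17 in control siRNA cells (adjusted p = 0.00187) and by -0.78 ± 0.17 in p53 siRNA cells (adjusted p = 0.0140). The second call was lost without p53 siRNA TNF replicate 1 or 3 (adjusted p = 0.0671 and 0.0554) and when only the compared groups were fitted (0.0878). RAD51AP1, which stimulates strand invasion, and the paralogue RAD51C fell in control siRNA cells with TNF (-0.97 ± 0.13 and -0.46 ± 0.11) and with p53 siRNA in untreated cells (-1.46 ± 0.13 and -1.22 ± 0.11, adjusted p = 1.17e-05 for each). The 2 other RAD51C probes gave -0.66 and -0.66 for the latter. The RAD51C call for TNF was lost without control untreated replicate 1 or 3 or control TNF replicate 1 or 3 (adjusted p = 0.0804, 0.0690, 0.0887 and 0.0929) and with median scaling (0.183).

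PALB2 and XRCC2 departed from this course. PALB2, which bridges the BRCA proteins, fell with TNF in control siRNA cells (-0.46 ± 0.13, adjusted p = 0.0400), and was higher with p53 siRNA than with control siRNA under TNF (0.43 ± 0.13, adjusted p = 0.0248). The first call was lost under 14 of the alternatives, among them the omission of any control TNF array (adjusted p = 0.137, 0.0543 and 0.133), of control untreated replicate 2 or 3 (0.103 and 0.172) and of any p53 siRNA TNF array (0.0627, 0.0624 and 0.0621). The second was lost without control TNF replicate 1 or 3 (0.0792 and 0.0791), without any p53 siRNA TNF array (0.0637, 0.0623 and 0.0714) and with median scaling (0.347). XRCC2, another paralogue, read 12.66, 12.39 and 12.38 in untreated control siRNA cells and 12.93, 12.92 and 14.10 in untreated p53 siRNA cells, so its rise of 0.84 ± 0.26 (adjusted p = 0.0228) drew much of its size from replicate 3. Without that array the rise was 0.45 (adjusted p = 0.0176). It was no longer called without control untreated replicate 2 or 3 (adjusted p = 0.0688 and 0.0678), with median scaling (0.172) and when only the compared groups were fitted (0.0793). A dimmer XRCC2 probe, detected on 11 of 12 arrays, lay in the opposite direction at -0.52 (adjusted p = 0.0814), and the mean of the probes gave 0.16 (adjusted p = 0.493), so no direction is set for this gene.

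Among the 7 tested genes of end processing and junctions, 3 fell with TNF in control siRNA cells, 0 were called in p53 siRNA cells, 4 fell with p53 siRNA in untreated cells and 2 under TNF. Of all genes 4.69%, 3.85%, 17.9% and 16.5% were lower in these comparisons. BLM, the helicase of Bloom syndrome, read 8.18, 7.64 and 8.003 in untreated control siRNA cells, 7.60, 7.18 and 7.02 with TNF, and 6.63, 5.64 and 6.40 with p53 siRNA. It was undetected on all 3 arrays of p53 siRNA with TNF and on 1 of 3 without TNF. The p53 siRNA effect was -1.72 ± 0.24 in untreated cells (adjusted p = 2.00e-04), and under TNF BLM was at least 1.72-fold lower. The call under TNF (adjusted p = 0.00136) comes from the fit, which used the undetected values, and the bound itself was not tested. The bound sets the mean of the control siRNA arrays with TNF against the higher, on each array of the dim group, of the BLM value and the dimmest detected probe.

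EME1, the partner of the junction endonuclease MUS81, read 8.53, 8.62 and 8.56 in untreated control siRNA cells, 7.60, 7.81 and 7.96 with TNF, 7.46, 7.80 and 7.21 with p53 siRNA, and 7.28, 7.08 and 7.44 with p53 siRNA and TNF. The untreated control arrays lay above all 9 others. It changed by -0.78 ± 0.16 with TNF in control siRNA cells and by -1.08 ± 0.16 with p53 siRNA untreated (adjusted p = 0.00772 and 2.67e-04). Under TNF the p53 siRNA effect was called too, but not without control TNF replicate 2 or 3 or p53 siRNA TNF replicate 1 or 2 (adjusted p = 0.0691, 0.100, 0.0622 and 0.102). MUS81 itself was at 0.18 ± 0.16 and -0.14 ± 0.16 in these comparisons and was called in none of the 5.

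DNA2, a nuclease and helicase that resects ends, read 8.50, 8.53 and 8.49 in untreated control siRNA cells and 7.87, 7.54 and 7.55 with TNF. With p53 siRNA it read 7.81, 7.18 and 7.42 untreated and 7.90, 7.78 and 7.58 with TNF. Untreated control cells stood alone at the top, and the other groups overlapped. It changed by -0.86 ± 0.16 with TNF in control siRNA cells (adjusted p = 0.00482) and by -1.04 ± 0.16 with p53 siRNA untreated (adjusted p = 3.91e-04), and was at 0.10 ± 0.16 for p53 siRNA under TNF. A dimmer DNA2 probe, detected on 9 arrays, changed there by -0.69 (adjusted p = 0.0379). MRE11, the nuclease that starts resection, fell with p53 siRNA in untreated cells (-0.85 ± 0.17, adjusted p = 0.00227), where its other probes gave -0.92 and 0.02. Its fall with TNF in control siRNA cells was not called once any control siRNA array (adjusted p = 0.0804 to 0.146), or p53 siRNA TNF replicate 1 or 3 (0.0589 and 0.0559), was left out. Its partner NBN and the helicase WRN were called in none of the comparisons, although NBN passed for p53 siRNA with and without TNF once replicate 3 of untreated p53 siRNA was left out (-0.43 and -0.66, adjusted p = 0.0428 and 0.0107).

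Of the 8 tested Fanconi genes, all 8 fell with p53 siRNA in untreated cells (median -1.21) and 6 under TNF (median -0.77). TNF lowered 5 in control siRNA cells (median -0.64) and 0 in p53 siRNA cells (median -0.07). Of all genes 17.9%, 16.5%, 4.69% and 3.85% were lower in these comparisons, in that order, so the last count lies near the share of all genes. FANCI, a subunit of the clamp that the pathway ubiquitinates, read 10.19, 10.16 and 10.03 in untreated control siRNA cells and 9.53, 9.52 and 9.51 with TNF. With p53 siRNA it read 8.91, 8.24 and 8.57 untreated and 8.44, 8.41 and 8.47 with TNF. The control groups separated from each other and from the p53 siRNA groups, which overlapped. TNF changed FANCI by -0.61 ± 0.14 in control siRNA cells (adjusted p = 0.0196) and p53 siRNA lowered it 2.93-fold in untreated cells (-1.55 ± 0.14, adjusted p = 1.28e-05). The TNF call was lost without any control TNF array (adjusted p = 0.0616, 0.0603 and 0.0660) or control untreated replicate 1 or 2 (0.0740 and 0.0671), and with median scaling (0.0976).

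UBE2T, the conjugating enzyme that supplies ubiquitin to that clamp, read 11.82, 12.14 and 12.06 in untreated control siRNA cells and 11.22, 11.45 and 11.18 with TNF. It read 10.54, 10.38 and 10.65 with p53 siRNA and 10.49, 10.40 and 10.50 with p53 siRNA and TNF. The order of the groups was that of FANCI, again with overlap between the p53 siRNA groups. Its changes were -0.72 ± 0.12 with TNF in control siRNA cells and -0.06 ± 0.12 in p53 siRNA cells (adjusted p = 0.00279 and 0.835). The p53 siRNA effects were -1.49 ± 0.12 untreated and -0.82 ± 0.12 under TNF (adjusted p = 6.96e-06 and 4.00e-04). USP1, the protease that removes the same ubiquitin, changed alongside by -0.68 ± 0.15 with TNF in control siRNA cells and by -1.21 ± 0.15 with p53 siRNA untreated (adjusted p = 0.0140 and 9.30e-05). Its TNF call was lost when control untreated replicate 2 was left out, or control TNF replicate 2 or 3 (adjusted p = 0.0518, 0.0598 and 0.0651), and with median scaling (0.115).

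The core complex genes split in their answer to TNF. FANCL, its ubiquitin ligase, fell with TNF in control siRNA cells (-0.71 ± 0.12, adjusted p = 0.00268). FANCB read 7.73, 7.38 and 7.41 in untreated control siRNA cells and 6.31, 6.37 and 6.78 with TNF. It was detected on all 3 untreated control siRNA arrays and on 1 of 3 in each other group, so it passed the detection filter through the group where it was high. It is among the 5 genes counted above for TNF and the 8 for p53 siRNA, but its changes have no firm size. FANCC, FANCE and FANCG were not called for TNF with either siRNA, with changes from -0.36 to 0.14. FANCC read 8.10, 8.27 and 7.71 in untreated control siRNA cells, 7.76, 7.38 and 7.88 with TNF, 6.49, 7.25 and 6.48 with p53 siRNA, and 6.76, 6.88 and 6.61 with p53 siRNA and TNF. Treated and untreated values overlapped with either siRNA, while all 6 control siRNA arrays lay above all 6 p53 siRNA arrays. The p53 siRNA effect on FANCC was -1.29 ± 0.22 untreated and -0.92 ± 0.22 under TNF (adjusted p = 7.60e-04 and 0.00746), and on FANCE -1.22 ± 0.20 and -0.84 ± 0.20 (adjusted p = 5.28e-04 and 0.00647). FANCG changed by -0.95 ± 0.22 and -0.73 ± 0.22 (adjusted p = 0.00568 and 0.0272), the second lost without any p53 siRNA TNF array (0.0582, 0.0717 and 0.0699) or control TNF replicate 1 or 2 (0.0924 and 0.0532).

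All 3 mismatch repair genes were called lower with p53 siRNA in untreated cells (median -1.16), PMS2 by its brighter probe only. Of all genes 17.9% were lower there. EXO1, the exonuclease that removes the mismatched strand and also resects breaks, had the largest fall of the 40 genes there. It read 10.62, 10.31 and 10.47 in untreated control siRNA cells and 9.63, 9.34 and 9.56 with TNF. With p53 siRNA it read 8.57, 8.25 and 7.87 untreated and 8.17, 8.11 and 8.18 with TNF. The control groups stood apart from each other and from the p53 siRNA groups, which overlapped. The p53 siRNA lowered EXO1 4.72-fold in untreated cells (-2.24 ± 0.16, adjusted p = 2.52e-06) and 2.56-fold under TNF (-1.36 ± 0.16, adjusted p = 7.62e-05). TNF lowered it 1.94-fold in control siRNA cells (-0.96 ± 0.16, adjusted p = 0.00265), and the change in p53 siRNA cells was -0.08 ± 0.16 (adjusted p = 0.840).

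MSH6, which recognises mispaired bases, read 12.58, 12.27 and 12.53 in untreated control siRNA cells, 11.79, 11.86 and 11.69 with TNF, 11.30, 11.29 and 11.32 with p53 siRNA, and 11.47, 11.20 and 11.33 with p53 siRNA and TNF. Both control groups stood apart, and the p53 siRNA groups overlapped below them. TNF changed it by -0.69 ± 0.12 in control siRNA cells (adjusted p = 0.00256) and the p53 siRNA by -1.16 ± 0.12 and -0.44 ± 0.12 without and with TNF (adjusted p = 1.92e-05 and 0.0121). The last call was lost without p53 siRNA TNF replicate 2 (adjusted p = 0.0593).

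PMS2, the endonuclease subunit that nicks the new strand, read 8.70, 8.82 and 8.72 in untreated control siRNA cells, 7.9995, 8.44 and 8.40 with TNF, 7.87, 8.23 and 8.07 with p53 siRNA, and 8.39, 8.34 and 8.03 with p53 siRNA and TNF. Only the untreated control arrays stood clear of the rest. The untreated p53 siRNA effect was -0.69 ± 0.15 (adjusted p = 0.00354) and the TNF effect in control siRNA cells was -0.46 ± 0.15 (adjusted p = 0.0765). A dimmer PMS2 probe, detected on 8 arrays, lay in the opposite direction for the p53 siRNA at 0.29 (adjusted p = 0.119), and the mean of both probes was not called (-0.20, adjusted p = 0.196). PMS2 has near-identical pseudogene copies in the genome, so its probes may share signal with them.

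Of the 5 end-joining genes 0 were called for TNF with either siRNA, and XRCC6 alone was called for p53 siRNA (subset median -0.08 untreated and -0.12 under TNF). Over all genes 9.59% and 7.80% were called for TNF with control and p53 siRNA, and 35.6% and 30.9% for p53 siRNA without and with TNF. Counts over 5 genes cannot set the subset apart from these shares. XRCC6, a subunit of the Ku ring that clasps broken ends, read 13.29, 13.24 and 13.38 in untreated control siRNA cells, 13.29, 13.26 and 13.22 with TNF, 13.09, 12.97 and 12.81 with p53 siRNA, and 13.02, 12.89 and 12.93 with p53 siRNA and TNF. All control siRNA arrays lay above all p53 siRNA arrays, and TNF groups overlapped untreated ones. The p53 siRNA effect was 1.27-fold (-0.35 ± 0.10, adjusted p = 0.0219) untreated and 1.24-fold under TNF (-0.31 ± 0.10, adjusted p = 0.0409). The first call was lost without control untreated replicate 1 or 3 (adjusted p = 0.0519 and 0.0824) and when only the compared groups were fitted (0.118). The second was lost under 12 of the alternatives, including the omission of any control or p53 siRNA TNF array (0.0671 to 0.129) or any control untreated array (0.0511 to 0.0560). The other XRCC6 probe was called for neither effect, at -0.293 and -0.285 (adjusted p = 0.0964 and 0.117).

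XRCC5, the other Ku subunit, read 11.93, 11.96 and 12.05 in untreated control siRNA cells, 11.69, 11.65 and 11.68 with TNF, 12.15, 11.93 and 12.36 with p53 siRNA, and 12.05, 11.98 and 11.92 with p53 siRNA and TNF. The control arrays with TNF lay below all others. Its TNF effect in control siRNA cells was -0.30 ± 0.12 and its p53 siRNA effect under TNF was 0.31 ± 0.12 (adjusted p = 0.149 and 0.0637). Without replicate 3 of untreated p53 siRNA these passed at nearly the same sizes (adjusted p = 0.0351 and 0.0141).

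PRKDC, the kinase that Ku recruits, read 11.07, 10.87 and 11.01 in untreated control siRNA cells, 10.96, 10.72 and 10.88 with TNF, 10.89, 10.44 and 9.15 with p53 siRNA, and 10.41, 10.27 and 10.52 with p53 siRNA and TNF. The value of 9.15 came from replicate 3, and without it the untreated p53 siRNA effect shrank from -0.83 (adjusted p = 0.0633) to -0.32 (adjusted p = 0.0965). Without it, too, the effect under TNF, -0.45 ± 0.32 in all arrays (adjusted p = 0.318), was called at -0.46 (adjusted p = 0.0158). Of its 3 other probes 1 was called there (-0.90, adjusted p = 0.0421).

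LIG4, the ligase of the pathway, read 7.52, 7.28 and 7.47 in untreated control siRNA cells, 7.41, 7.24 and 6.96 with TNF, 6.82, 7.71 and 7.50 with p53 siRNA, and 7.66, 7.51 and 7.59 with p53 siRNA and TNF. TP53BP1, which restrains resection and so favours end joining, read 10.68, 10.42 and 10.58, then 10.65, 10.58 and 10.42, then 10.99, 10.57 and 10.69, and then 10.37, 10.44 and 10.49 in the same order of groups. Neither was called in any comparison, and their changes for TNF and for p53 siRNA lay between -0.32 ± 0.13 and 0.38 ± 0.20. These tests do not show that the genes were unaffected.

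CHEK1 was the only one of 5 checkpoint genes to be called. It was called for p53 siRNA, where 35.6% of all genes were called untreated and 30.9% under TNF. This kinase, which slows the cycle downstream of ATR, read 10.77, 10.71 and 10.68 in untreated control siRNA cells and 10.26, 10.42 and 10.23 with TNF. With p53 siRNA it read 9.38, 8.82 and 8.72 untreated and 8.63, 9.01 and 9.04 with TNF. All 6 control siRNA arrays lay above all 6 p53 siRNA arrays. The p53 siRNA lowered it 3.36-fold untreated (-1.75 ± 0.17, adjusted p = 1.63e-05) and 2.66-fold under TNF (-1.41 ± 0.17, adjusted p = 8.24e-05), whereas TNF in control siRNA cells gave -0.42 ± 0.17 (adjusted p = 0.175). The apical kinases ATM and ATR were at -0.15 ± 0.14 and -0.16 ± 0.20 for p53 siRNA untreated, and ATR was detected on 6 of 12 arrays. TOPBP1, which activates ATR, was at -0.39 ± 0.15 (adjusted p = 0.0594). CHEK2 was at -0.43 ± 0.19 (adjusted p = 0.0999), where its other probe was called at -0.70 (adjusted p = 0.0378).

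UNG fell with TNF with either siRNA, and UNG and PARP1 both fell with p53 siRNA. UNG, the glycosylase that removes uracil from DNA, read 12.87, 12.75 and 12.95 in untreated control siRNA cells and 11.67, 11.86 and 11.76 with TNF. With p53 siRNA it read 11.63, 11.23 and 11.25 untreated and 10.55, 10.86 and 10.81 with TNF. The 4 groups stepped down in that order without overlap. TNF changed it by -1.10 ± 0.14 in control siRNA cells and by -0.63 ± 0.14 in p53 siRNA cells (adjusted p = 2.85e-04 and 0.0137), and p53 siRNA by -1.49 ± 0.14 and -1.02 ± 0.14 (adjusted p = 1.18e-05 and 1.76e-04). The TNF call in p53 siRNA cells was lost without p53 siRNA TNF replicate 1 (adjusted p = 0.0685), with the mean of the UNG probes (0.177) and when only the compared groups were fitted (0.108). Of its dimmer probes, one was detected on all 3 untreated control siRNA arrays and on none of the other arrays, so it gives no size for these changes, and the other was called in none of the comparisons.

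PARP1, a sensor of strand breaks, read 12.38, 12.44 and 12.52 in untreated control siRNA cells, 12.32, 12.19 and 12.08 with TNF, 11.41, 11.36 and 11.44 with p53 siRNA, and 10.97, 10.99 and 11.04 with p53 siRNA and TNF. These groups also stepped down without overlap, with the wide gap between the siRNAs. The p53 siRNA lowered it 2.06-fold untreated (-1.04 ± 0.10, adjusted p = 1.44e-05) and 2.29-fold under TNF (-1.20 ± 0.10, adjusted p = 8.04e-06). TNF gave -0.25 ± 0.10 in control siRNA cells (adjusted p = 0.165) and changed it by -0.40 ± 0.10 in p53 siRNA cells (adjusted p = 0.0290), a call lost under 9 of the alternatives, among them the omission of any of the 3 p53 siRNA TNF replicates (adjusted p = 0.108, 0.0995 and 0.0800) or p53 siRNA untreated replicate 1 (0.0519). XRCC1, the scaffold of single-strand break repair, was called in none, with changes from -0.07 ± 0.14 to 0.14 ± 0.14.

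**Figure D2:**
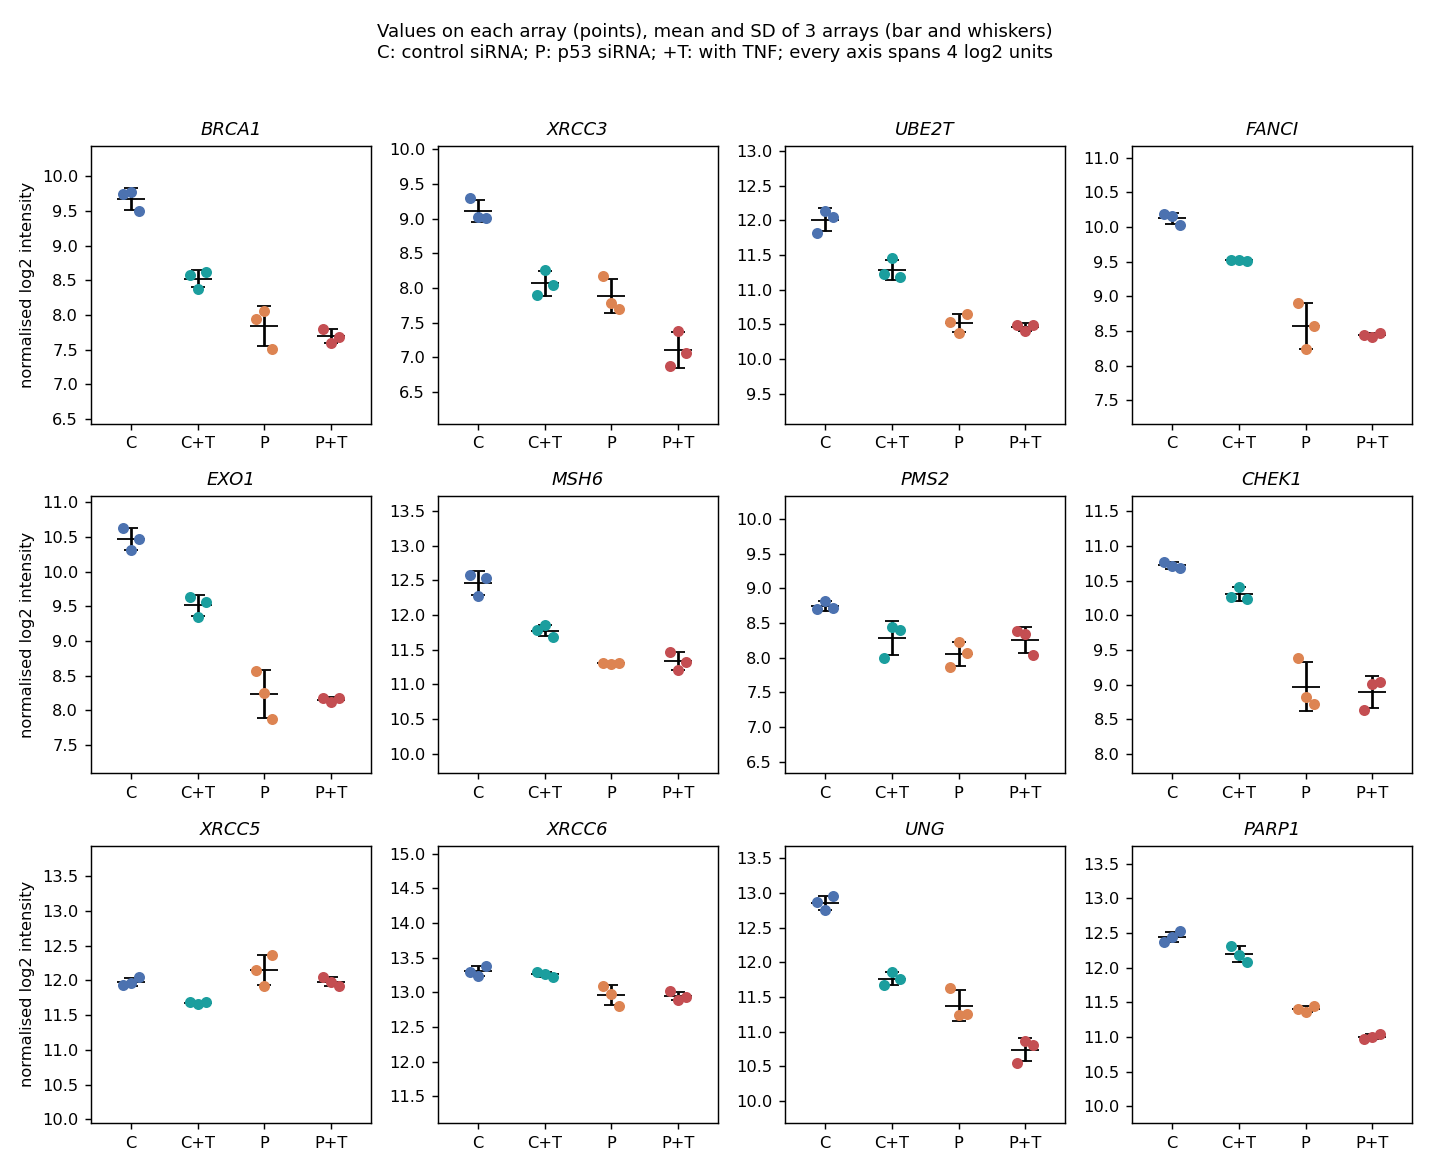
Normalised log2 intensity of 12 repair genes on each array (points), with the mean and SD of each group of 3. Panels have different centres but the same height of 4 log2 units. EXO1, BRCA1 and FANCI drop in steps from untreated control siRNA to the p53 siRNA groups, XRCC5 and XRCC6 stay nearly level, and UNG and PARP1 drop again with TNF in p53 siRNA cells.

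Set side by side, recombination (16 tested), Fanconi (8) and mismatch repair (3) had medians further below 0 than end joining (5) in all comparisons but that of TNF in p53 siRNA cells. For TNF in control siRNA cells the medians were -0.71, -0.64, -0.69 and -0.13, with 11, 5, 2 and 0 genes lower. For p53 siRNA in untreated cells they were -1.06, -1.21, -1.16 and -0.08, with 11, 8, 3 and 1 lower. The 3 include PMS2, whose dimmer probe lay in the opposite direction. Under TNF they were -0.47, -0.77, -0.44 and -0.12, with 8, 6, 2 and 1 lower. For TNF in p53 siRNA cells all 4 medians lay between -0.17 and 0.03. These medians are descriptions over few genes, and no test between subsets was made. Of all genes, 4.69% were lower for TNF in control siRNA cells, 17.9% for p53 siRNA untreated and 16.5% under TNF.

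**Figure D3:**
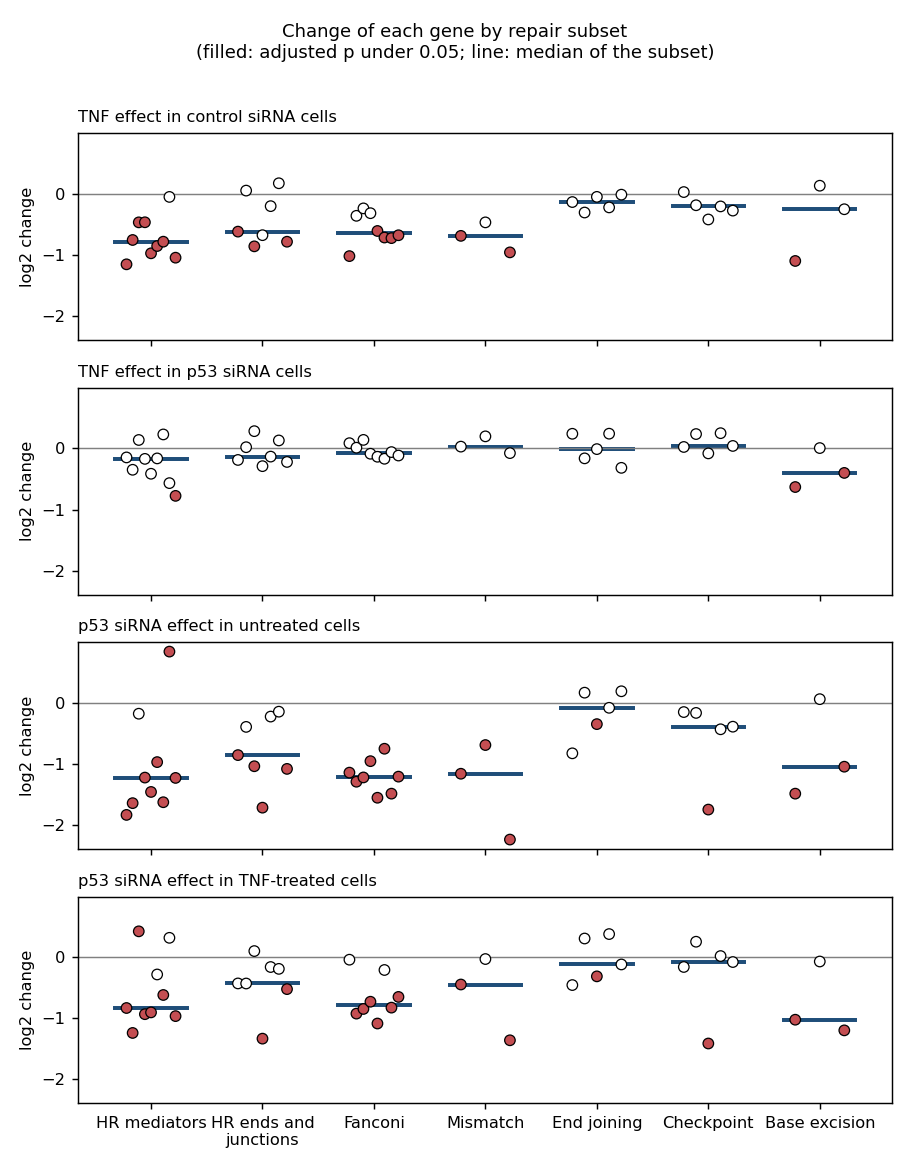
Log2 change of each tested gene (points) by subset for the TNF effect with each siRNA and the p53 siRNA effect with each treatment. Filled points had an adjusted p under 0.05, and the bar is the median of the subset. The bars of the recombination, Fanconi and mismatch subsets lie well below 0 in all panels but that of TNF in p53 siRNA cells, while those of end joining stay near 0.

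The difference between the TNF effects (p53 siRNA minus control siRNA) was tested directly. It was called for 0 of the 40 genes, against 0.216% of all genes. All the same it was positive for 33 of 40 repair genes, with a median of 0.41, and positive for 49.6% of all genes, and 16 of the 40 had an unadjusted p under 0.05, all positive, where 10.3% of all genes did and 5.09% were positive. Leaving aside FANCB, which was undetected on most arrays of 3 groups, the largest were DNA2 at 1.14 ± 0.23, RAD54B at 1.01 ± 0.26 and BRCA1 at 1.005 ± 0.21 (adjusted p = 0.0717, 0.182 and 0.0907). Dimmer probes, undetected on some p53 siRNA arrays, gave 0.40 for DNA2 and 0.61 for BRCA1 (adjusted p = 0.737 and 0.342 over all kept probes). BRCA1 passed without replicate 3 of untreated p53 siRNA (0.84, adjusted p = 0.0383) and DNA2 without replicate 1 of that group (1.32, adjusted p = 0.0257). The TNF effects share no array. Of the 19 genes lowered by TNF in control siRNA cells 2 were lowered in p53 siRNA cells, XRCC3 and UNG, which are 2 of the 3 lowered there. The p53 siRNA effects share no array either. They had 20 genes lower in common, out of 26 untreated and 20 under TNF. Of all genes 17.9% and 16.5% were lower for p53 siRNA without and with TNF. For TNF with control and p53 siRNA 4.69% and 3.85% were. Calls in common were not counted over all genes, so neither overlap can be read as particular to the repair genes.

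**Figure D4:**
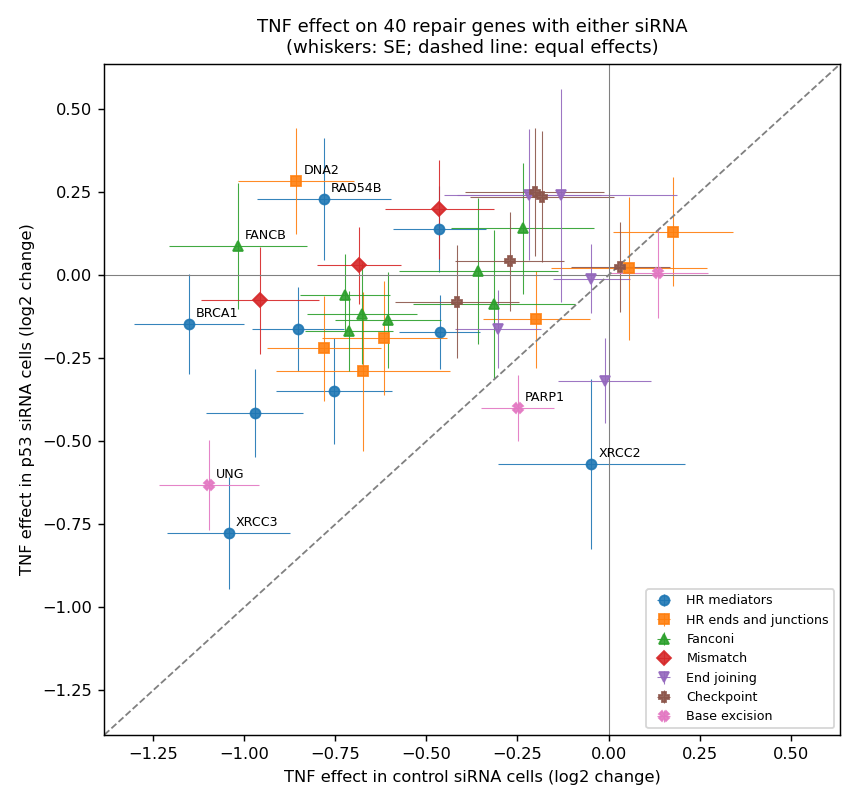
TNF effect (log2 change) on each of the 40 repair genes in control siRNA cells (horizontal) and p53 siRNA cells (vertical), with SE whiskers and the line of equal effects. Of the points 33 lie above the line, most of them left of 0 and near 0 in height, and UNG and XRCC3 lie lowest on the left.

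Many genes that mark S phase and mitosis also fell. The shares of all genes that were lower were 4.69% and 3.85% for TNF in control and p53 siRNA cells. They were 17.9% and 16.5% for p53 siRNA untreated and under TNF. Of 15 tested S phase markers, 13 fell with TNF in control siRNA cells, 2 in p53 siRNA cells, 14 with p53 siRNA untreated and 13 under TNF, with medians of -0.84, -0.28, -1.48 and -1.02. Their summed intensity ran from 84260 to 88780 in untreated control siRNA cells and from 47620 to 50040 with TNF. It ran from 30570 to 44300 with p53 siRNA and from 29410 to 30660 with p53 siRNA and TNF. Of 15 G2/M markers, 7, 9, 14 and 14 fell in the same comparisons (medians -0.52, -0.59, -1.07 and -1.24), the second count standing against 3 of the 40 repair genes. Their summed intensity ran from 96510 to 102500, 68110 to 72600, 37960 to 56600 and 29820 to 31160 in the 4 groups in that order. CCNE2 of the S phase list was undetected on all 12 arrays. The difference between the TNF effects had a median of 0.48 over S phase and -0.05 over G2/M markers, with 0 called in either list. Their part in the change of the repair genes was not tested.

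**Figure D5:**
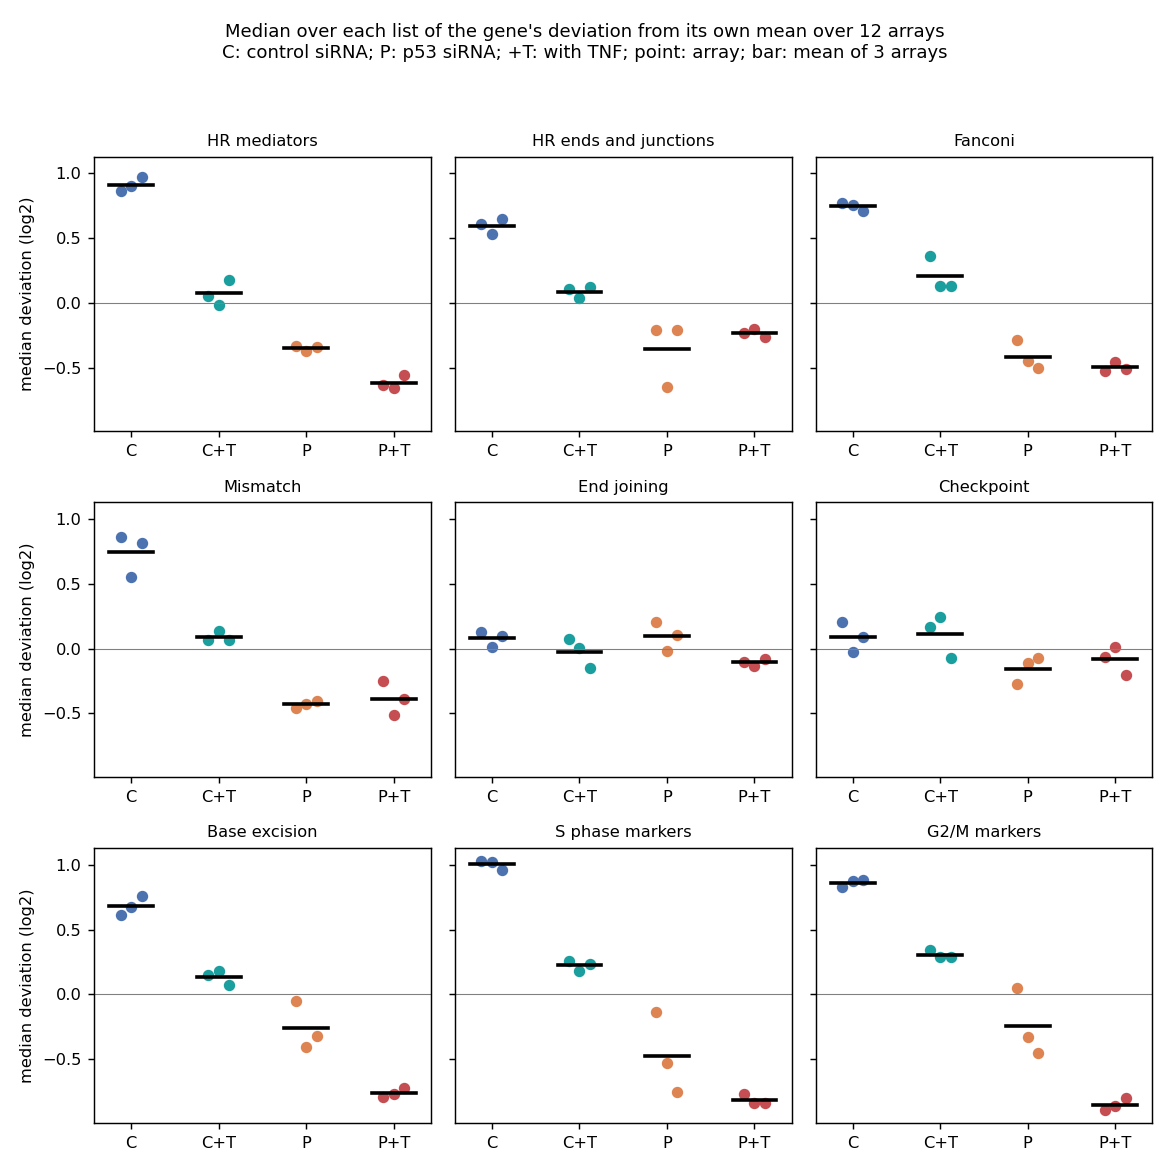
Median, on each array (points), of the deviation of the genes of a list from their own mean over 12 arrays, for the 7 repair subsets and the S phase and G2/M marker lists. Bars are means of 3 arrays. In the S phase, G2/M, recombination, Fanconi, mismatch and base excision panels the untreated control siRNA arrays lie highest and the p53 siRNA groups lowest. The S phase, G2/M, HR mediators and base excision panels lie lower still with TNF in p53 siRNA cells. There the Fanconi, mismatch and HR ends and junctions arrays overlap the untreated ones. The end-joining and checkpoint panels are nearly flat.

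Other genes of the same pathways were read from lists that do not include the 47. Over all genes 9.59% were called for TNF in control siRNA cells, 35.6% for p53 siRNA untreated and 30.9% under TNF. Several counts of the 7 lists lie near these shares. Among other recombination genes 3 of 26 were lower and 0 higher for TNF in control siRNA cells, and 9 were lower and 2 higher for p53 siRNA untreated. Their medians were -0.18 and -0.33, against -0.71 and -1.06 for the 16 recombination genes above. MND1, which assists strand exchange, changed by -1.10 and -1.65, and RMI1, a subunit of the BLM complex, by -0.66 and -1.57, while the helicase gene RECQL5 rose by 0.95 with p53 siRNA. Further crosslink repair genes had 1 of 15 lower with TNF (DCLRE1B, a nuclease, -0.91) and 6 lower and 2 higher with p53 siRNA, among them RFWD3, a ubiquitin ligase, at -0.92 and REV3L, a translesion polymerase, at 0.81. Their medians were -0.14 and 0.05, against -0.64 and -1.21 for the Fanconi genes above, so the fall did not extend to this list as a whole. In the mismatch repair list 7 of 11 fell in each of these comparisons and 7 with p53 siRNA under TNF (medians -0.60, -0.93 and -0.57). Those that fell most load or form the replication clamp rather than recognise mismatches, with RFC3 at -1.21 and PCNA at -0.91 for TNF, and RFC2 at -1.77 and RFC4 at -1.62 for p53 siRNA.

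For TNF in control siRNA cells 4.69% of all genes were lower and 4.89% higher, and for p53 siRNA untreated 17.9% and 17.7%. The counts of the end-joining and nucleotide excision lists below lie near these shares. Genes are named from the largest called changes and do not stand for their lists. Further end-joining genes had 0 of 8 called for TNF in control siRNA cells. With p53 siRNA untreated 1 was lower (PAXX, a Ku-binding factor, -0.49) and 2 were higher (the polymerase POLL at 0.79 and the nuclease DCLRE1C at 0.48). Of 13 other checkpoint genes 4 fell with TNF, including TIMELESS, which protects forks, at -0.88. With p53 siRNA 6 fell and 2 rose, with TIPIN, the partner of TIMELESS, at -2.45 and the kinase WEE1 at 0.86. Among 15 further base excision genes 2 fell with TNF, the flap nuclease FEN1 at -0.71 and the glycosylase NEIL3 at -0.94. With p53 siRNA 6 fell and 1 rose, with NEIL3 at -1.86 and FEN1 at -1.40. Nucleotide excision and direct reversal had 0 of 17 called for TNF in control siRNA cells, and 5 lower and 3 higher for p53 siRNA, with the damage sensors DDB2 at -1.35 and XPC at 0.70. For TNF in control siRNA cells and p53 siRNA untreated the medians were -0.02 and 0.15 over end joining and -0.36 and -0.39 over checkpoint genes. They were -0.09 and -0.42 over base excision, and 0.03 and -0.03 over nucleotide excision and direct reversal. For TNF in p53 siRNA cells the 7 lists held 2 calls, MND1 at -0.54 and RFC3 at -0.74, where 7.80% of all genes were called. MGMT, RAD52, FANCF and NHEJ1 of these lists were undetected on all 12 arrays.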

How the data were processed

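Total RNA of 12 MDA-MB-231 cultures was read on Illumina bead arrays. Each deposited column is, per the file headers, an intensity or a detection p-value for 47322 probes. The submitters' processing notes name GenomeStudio, with no version. The authors' processed table, deposited as intensity values with a median of 241.6 on each array and a normalisation that is not known here, served as an alternative. Groups came from the source names, and the labels call the arrays biological replicates. No slide or scan was known, so a batch shared by a group cannot be told apart from it.

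Intensities were background-corrected and quantile-normalised with neqc of limma 3.58.1 in R 4.3.3 (offset 16, background inferred from detection p-values). Probes with detection p under 0.05 on at least 3 arrays were kept, and the brightest named probe stood for a gene, giving 12507 genes. One limma model with 4 group means was fitted to all 12 arrays (8 residual and 4.03 prior degrees of freedom), with 2-sided tests adjusted by Benjamini-Hochberg within each of 5 comparisons. Adjusted p-values of further probes are over all 23079 kept probes. The number of arrays limits the precision.

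The 47 genes, their subsets and the other lists were chosen with earlier results of these data known. Arrays per value were given for up to 3 called genes of a subset with the largest change and for all mismatch repair and end-joining genes. XRCC2 was added after its values were seen. Of the other lists, genes were named from the largest called changes, up to 3 per list and comparison. The script was tested on simulated data. Alternatives covered scaling, background, the authors' table, the detection filter, the choice of probe, the fit, array weights, a replicate block and leaving out each array.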

Additional observations from a re-analysis of the deposited data

Results flagged for a closer look

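The difference between the TNF effects was called for 1 probe of the 61 kept for these genes. It is the dimmer EXO1 probe, at 1.24 for p53 siRNA minus control siRNA (adjusted p = 0.00973 over all kept probes), against 0.88 for the brighter probe (adjusted p = 0.184 over genes). It was singled out because its TNF effect differed between the siRNAs in a test of that difference. On control siRNA arrays it read 8.12, 8.18 and 8.26 untreated and 6.95, 6.98 and 7.03 with TNF. It was detected on all 6 of these and on 0 of the 6 p53 siRNA arrays, where it read 5.82 to 6.08, so the values there have only a bound. In p53 siRNA cells no fall with TNF could be seen by this probe at that signal.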

How the results depend on the processing

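Of 4340 values of single genes under the alternatives, 0 called values changed sign, and 93 uncalled ones did. Calls held under every alternative for 12 of 19 genes (TNF, control siRNA), 0 of 3 (TNF, p53 siRNA), 24 of 27 (p53 siRNA, untreated) and 15 of 21 (p53 siRNA, TNF). Median scaling moved the medians of the p53 siRNA effects to -1.16 untreated and -0.65 under TNF. Without background correction the medians were -0.33 for TNF in control siRNA cells, -0.63 and -0.31 for p53 siRNA without and with TNF, and 0.31 for the TNF response difference, with 1 gene called in the last. In the authors' table they were -0.34, -0.66, -0.32 and 0.31, with 2 genes called in the last, BRCA1 and MSH6. The difference was called for 1 gene when probes of a gene were averaged (EXO1) and 1 with array weights (DNA2). The averaged EXO1 value includes the dimmer probe, undetected on every p53 siRNA array, where no fall with TNF could be seen. That call therefore cannot show that the TNF effects on EXO1 differ. Fitting only the compared groups called 0 genes for TNF in p53 siRNA cells.

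Leaving out each array in turn gave 13 to 20 genes called and medians of -0.54 to -0.41 for TNF in control siRNA cells, 0 to 3 and -0.12 to -0.0191 in p53 siRNA cells, 25 to 28 and -1.10 to -0.95 for p53 siRNA untreated, 15 to 25 and -0.48 to -0.38 under TNF, and 0 to 1 and 0.38 to 0.54 for the TNF response difference. Without p53 siRNA TNF replicate 1, 0 genes were called for TNF in p53 siRNA cells.

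With the replicate number as a block, 18, 2, 27, 20 and 0 genes were called in the 5 comparisons. Same-numbered arrays deviated together with a correlation over 0.1 in 1 of 18 pairs (median 0.00). No pairing by number was thus seen in the values, which cannot exclude one in the design.

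Over all genes the counts moved further. TNF in control siRNA cells gave 793 with median scaling and 2215 with array weights in place of 1199, and 733 to 1906 with an array left out. TNF in p53 siRNA cells gave 310 when only the compared groups were fitted and 542 with median scaling in place of 976, and 553 to 1730 with an array left out. The untreated p53 siRNA effect gave 2954 when only the compared groups were fitted, in place of 4458. The TNF response difference gave 5 to 52 in place of 27, and 5 to 133 with an array left out. Signal over background limited BLM, FANCB and ATR, which were undetected on several arrays.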
